A study of Homo sapiens with 8 samples.

Results

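The genes described here are the core of the YAP and TAZ transcription output, 10 genes in all: the coactivators YAP1 and WWTR1 (which encodes TAZ), the DNA-binding partners TEAD1, TEAD2, TEAD3 and TEAD4, and the widely used target genes CCN1, CCN2, ANKRD1 and AMOTL2. The rule names the genes and uses no measured value, although the set was proposed with earlier results of these data known. Their chromatin was followed in peak lists from ATAC-seq, in which a transposase tags accessible DNA. Peaks of all lists that shared at least 1 bp were merged, which gave 126658 regions on GRCh38. Of these, 185 overlapped the body of 1 of the 10 genes or the 50 kb on either side of it: 50 at the coactivators, 78 at the TEAD genes and 57 at the target genes. These 185 regions are the material of this report, and 68 of them lay within 3 kb of a transcription start site (TSS) of any annotated gene.

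The cells were wild-type MCF10A, an immortalised, non-tumorigenic human mammary epithelial line, given solvent (BSA in PBS) or 5 ng/ml recombinant human TGFβ1 for 6, 24 or 72 h. Each of the 4 conditions had 2 replicates, 8 libraries in all, and by the labels the solvent samples are time 0, though the study elsewhere describes solvent kept for as long as the longest treatment. Each deposited list pools both replicates of its condition, so no value below has a replicate check, no test between conditions was possible and no p-value is given. The starts of all 8 marker genes of basal mammary epithelium carried a solvent peak, with areas from 306 to 8598, and so did 5 of 8 marker genes of blood, endothelium, liver and neurons (PTPRC, PECAM1, CDH5, SYP and RBFOX3, areas from 487 to 4523). A peak at a start thus did not by itself mark the cell type.

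YAP and TAZ are transcription coactivators without a DNA-binding domain of their own. Kinases of the Hippo pathway phosphorylate them and hold them in the cytoplasm, and when that restraint is lifted they enter the nucleus and bind TEAD factors, which recognise the letters GGAATG and often act beside AP-1. Their targets include secreted matrix proteins and feedback regulators of the pathway itself, and YAP, TAZ and TEAD are known to share enhancers with the SMAD factors that TGFβ activates.

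The promoters of CCN2 and ANKRD1 are shown because both hold the TEAD letters more than once. Each line gives the 250 bases before the annotated start from RefSeq (GRCh38.p14), 5′ to 3′ on the minus strand that both genes are on, with GGAATG in capitals. The CCN2 stretch lies at chr6:131951373-131951622 and the ANKRD1 stretch at chr10:90921088-90921337.
CCN2: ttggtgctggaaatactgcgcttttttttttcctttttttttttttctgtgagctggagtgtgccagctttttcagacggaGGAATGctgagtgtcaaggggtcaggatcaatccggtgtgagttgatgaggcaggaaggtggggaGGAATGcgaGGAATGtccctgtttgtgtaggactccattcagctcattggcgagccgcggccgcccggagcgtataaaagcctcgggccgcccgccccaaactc
ANKRD1: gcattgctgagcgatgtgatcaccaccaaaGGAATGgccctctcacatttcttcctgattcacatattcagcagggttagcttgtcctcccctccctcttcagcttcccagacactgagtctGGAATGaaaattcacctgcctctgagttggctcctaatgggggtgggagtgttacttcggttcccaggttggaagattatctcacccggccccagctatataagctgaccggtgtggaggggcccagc
The 3 TEAD sites of CCN2 begin 169, 104 and 95 bases before its start, and the 2 of ANKRD1 begin 220 and 128 bases before its start. Of 35116 RefSeq promoters cut to the same length, 11.9% held the letters on either strand, and 0.928% held them at least 2 times. RefSeq promoters were found for 7 of the 10 genes. The letters were also present once in those of YAP1 (162 bases before the start) and AMOTL2 (69 bases), and absent from those of WWTR1, TEAD2 and TEAD3. The AP-1 letters TGACTCA or TGAGTCA were in none of the 7 and in 4.2% of all promoters. TEAD1, TEAD4 and CCN1 have no entry in the table used. Around the summit of the accessible region at their starts, 201 bases held the letters on either strand 2 times at TEAD1, 2 times at TEAD4 and 1 time at CCN1. More than 1 site near the start was thus not limited to CCN2 and ANKRD1.

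Away from the promoters, 4 regions that carried more signal with TGFβ1 and hold TEAD letters are shown as the 201 bases centred on the summit of the 72 h peak, from the GRCh38 plus strand. TEAD letters (GGAATG or its complement CATTCC) and AP-1 letters are in capitals. The AMOTL2 window is chr3:134348596-134348796, the CCN2 window chr6:131980178-131980378, the TEAD1 window chr11:12625861-12626061 and the TEAD4 window chr12:2998989-2999189. None of the 4 windows lies in an annotated exon of a protein-coding gene, and exons of noncoding genes were not checked.
AMOTL2, 26.8 kb downstream of the 5′ end: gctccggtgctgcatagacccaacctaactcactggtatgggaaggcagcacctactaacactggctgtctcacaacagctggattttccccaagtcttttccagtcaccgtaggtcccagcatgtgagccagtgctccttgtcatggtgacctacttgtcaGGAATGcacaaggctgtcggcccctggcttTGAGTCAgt
CCN2, 28.9 kb upstream of the 5′ end: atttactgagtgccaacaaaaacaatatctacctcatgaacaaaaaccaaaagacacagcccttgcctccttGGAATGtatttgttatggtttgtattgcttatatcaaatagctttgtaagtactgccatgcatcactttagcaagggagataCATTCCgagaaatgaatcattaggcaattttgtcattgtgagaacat
TEAD1, 48.5 kb upstream of the 5′ end: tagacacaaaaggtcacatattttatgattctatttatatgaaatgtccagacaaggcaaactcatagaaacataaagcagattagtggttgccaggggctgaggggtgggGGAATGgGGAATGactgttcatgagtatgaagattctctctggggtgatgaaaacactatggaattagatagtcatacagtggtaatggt
TEAD4, 39.7 kb downstream of the 5′ end, in an intron: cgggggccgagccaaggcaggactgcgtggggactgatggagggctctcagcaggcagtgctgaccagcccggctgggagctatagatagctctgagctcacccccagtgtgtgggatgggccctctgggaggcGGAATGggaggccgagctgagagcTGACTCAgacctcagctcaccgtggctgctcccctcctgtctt
The AMOTL2 and TEAD4 windows held TEAD and AP-1 letters together, and the CCN2 and TEAD1 windows held the TEAD letters 2 times each. A match of letters describes the sequence and does not show that a factor was bound.

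Signal is given as the AUC, the area under the significance curve of a peak above the threshold of the peak caller, summed per region and list. The smallest AUC that any list holds is 200. The AUC grows with depth, which is unknown here, so TGFβ1 lists were scaled: ratios to solvent are log2 values from which the median at regions within 3 kb of a TSS was subtracted (0.44, 0.38 and 0.25 for the lists of 6, 24 and 72 h). A ratio is given only where both lists have a peak. A region without a solvent peak that has one later is called gained, and the reverse lost. In a bulk assay, more open chromatin per cell and a larger share of cells with open chromatin cannot be told apart.

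In the lists as deposited, which are longer with TGFβ1 than in solvent, the number of accessible regions around the 10 genes was larger in every TGFβ1 list, but with lists of equal length it was smaller in each. A peak was present in 136 of the 185 regions in solvent and in 159, 167 and 166 after 6, 24 and 72 h, and 129 regions (69.7%, against 62.6% of all merged regions) had one in all 4 lists. With every list cut to the length of the solvent list, the counts were 136 in solvent and 125, 122 and 123 with TGFβ1, and 3, 9 and 10 regions were gained against 14, 23 and 23 lost. No share over all regions is given for the cut lists, so these counts are not a result about these genes. The counts and shares that follow are from the lists as deposited. Gained regions numbered 25 at 6 h (13.5%, against a background of 19.3% of all regions), 35 at 24 h (18.9%, background 27.6%) and 37 at 72 h (20.0%, background 27.0%). The share gained around these genes was thus below that over all regions at every time. However, only a region without a solvent peak can be gained. A solvent peak was present in 73.5% of the 185 regions against 65.1% of all regions, so a smaller share could be gained. The lower share is therefore not read as a result about these genes. Lost regions numbered 2 (1.08%, background 0.465%), 4 (2.16%, background 1.21%) and 7 (3.78%, background 2.24%). All 10 genes had at least 1 region without a solvent peak, while the 7 regions lost by 72 h lay at AMOTL2, TEAD1, TEAD2, TEAD3 and YAP1. Of the 49 regions without a solvent peak, 35 stayed under an AUC of 400 in every list, and the solvent AUC of the 7 lost regions was between 224 and 388, so most entries and exits were near the smallest AUC that a list can hold.

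Among regions with a peak on both sides of the comparison, 4 of 134 were at least 2-fold higher at 6 h (2.99%, background 3.45%), 9 of 132 at 24 h (6.82%, background 8.37%) and 13 of 129 at 72 h (10.1%, background 10.5%). None was at least 2-fold lower at 6 h (background 0.215%), 2 were at 24 h (1.52%, background 0.935%) and 4 at 72 h (3.1%, background 1.23%). The median log2 ratio was -0.01, 0.01 and 0.07 at the 3 times, against 0.06, 0.12 and 0.15 over all regions. The share of regions that were higher was near the background, so the count of such regions is not a result about these genes, and the regions themselves are described below by gene.

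**Figure D1:**
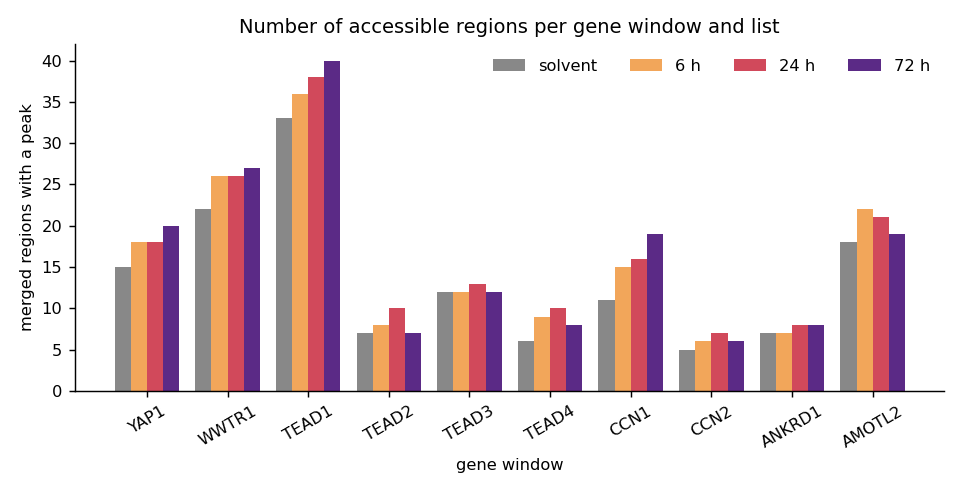
Number of merged regions with a peak (vertical axis) in the window of each gene, with 1 bar per list (solvent, then 6, 24 and 72 h of TGFβ1). CCN1 went from 11 regions in solvent to 19 at 72 h and TEAD1 from 33 to 40, while TEAD2, TEAD3, TEAD4 and CCN2 had their highest number at 24 h.

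The 13 regions that were at least 2-fold higher at 72 h lay at 8 genes, all but TEAD3 and TEAD4. All 13 were weak in solvent, with an AUC from 201 to 678. Weak regions had the widest ratios in the whole data as well: of all regions with a solvent AUC of 200 to 400, 27.2% were at least 2-fold higher at 72 h, against 9 of 33 (27.3%) of those around the 10 genes, and of regions with a solvent AUC of 1600 or more 0.307% were, against 0 of 36. Of the 13, 4 were already 2-fold higher at 6 h and 9 at 24 h, and 7 were higher at each time than at the one before. TEAD letters lay near the summit of 6 of them and AP-1 letters near that of 3. The shares were 22.2% and 23.2% over the 185 regions and 15.9% and 32.3% over all regions. With 13 regions picked by their ratio, the counts are not read as a result about the motifs.

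**Figure D2:**
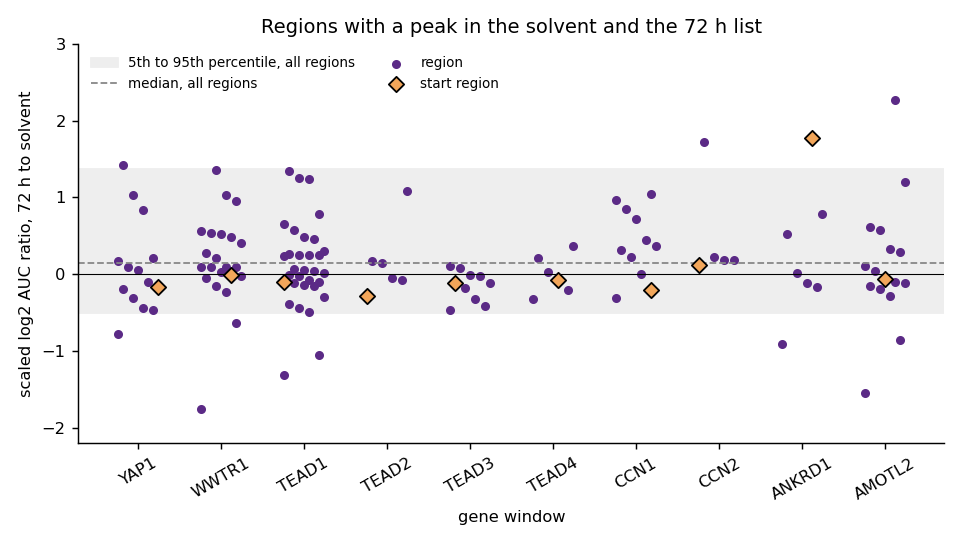
Scaled log2 AUC ratio of 72 h to solvent for each region with a peak in both lists, by gene window (points, start regions as diamonds). The grey band is the 5th to 95th percentile of all such regions and the dashed line their median of 0.15. The start regions lie near 0 except that of ANKRD1 at 1.78, and the highest point is the AMOTL2 region at 2.27.

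The start regions of the coactivator genes were among the strongest of the set and stayed close to their solvent level. The start region of YAP1 (chr11:102109857-102112335, first exon) had an AUC of 7075 in solvent and of 9220, 8081 and 7451 at 6, 24 and 72 h. Its scaled log2 ratios were -0.06, -0.19 and -0.17. That of WWTR1 (chr3:149656864-149659127, 78.7 kb downstream of the 5′ end of the gene model) had an AUC of 6682, 8593, 8337 and 7886 in the same order. Its scaled ratios were -0.08, -0.06 and -0.01. A different WWTR1 start lay in a weak region that the rule did not take (chr3:149703100-149703333). That region had no peak in solvent or at 6 h and an AUC of 329 and 454 at 24 and 72 h. Over all start regions of protein-coding genes the medians were -0.05, -0.08 and -0.07, with a 5th percentile of -0.35 and a 95th of 0.50 at 72 h, so both genes lay inside that range at 72 h.

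Inside the gene bodies, single regions moved both ways. In YAP1, an intronic region 115.6 kb into the gene (chr11:102225750-102226418, 555 bp from an internal TSS) had an AUC of 678 in solvent and 1326, 1680 and 2150 after 6, 24 and 72 h, a scaled log2 ratio of 1.42 at 72 h. It was higher in each list than in the one before, also after scaling, and per base of peak its ratio at 72 h was 0.91, under 2-fold. The largest region of the YAP1 window beside the start, 158.1 kb downstream of the 5′ end, had 4785, 5902, 5301 and 4590 and a ratio of -0.31 at 72 h. The window gained 6 of 22 regions by 72 h and lost 1, an intergenic region at chr11:102253078-102253316 with an AUC of 283, 527 and 272 before it was without a peak.

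WWTR1 held a rise, a fall and 2 gains among the regions named by rule, more than any other gene except AMOTL2 with its 5. An intronic region 109.9 kb from the 5′ end of the gene model (chr3:149626643-149627007) had an AUC of 1096 in solvent and 951, 508 and 384 after 6, 24 and 72 h, a scaled log2 ratio of -1.76 and the lowest of the 129 regions. The decline was present at every step. The region at chr3:149572651-149573445, which overlaps a WWTR1 exon, went the other way from 371 to 1022, 1002 and 1134, a ratio of 1.36. Its peak widened from 178 to 692 bp, and per base of peak its ratio was -0.52. The −log10 q at its summit was 5.21 in solvent and 7.53, 7.01 and 7.22 with TGFβ1. The q-values were not scaled. At the WWTR1 start region, whose scaled ratios were near 0, −log10 q was 9.73 in solvent and likewise higher with TGFβ1, at 11.1, 10.5 and 10.5. Intronic regions at chr3:149678343-149678667 (no solvent peak, then 557, 682 and 871) and chr3:149585354-149585699 (no solvent peak, then 515, 404 and 820) were in all TGFβ1 lists. The summed scaled AUC of the whole window was 1.16-fold solvent at 72 h for WWTR1 and 1.05-fold for YAP1.

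The 4 TEAD genes encode the factors that bring YAP and TAZ to DNA. Their start regions, each the region near a start of the gene with the largest solvent AUC, were strong in every list and none changed by 2-fold. For TEAD2 that region is not the one over its own 5′ end, as described below. The AUC at the start of TEAD1 (chr11:12673814-12675467) was 3662 in solvent and 4757, 4321 and 4055 after 6, 24 and 72 h. That of TEAD3 (chr6:35495715-35498220) was 5043, 6870, 6429 and 5509, and that of TEAD4 (chr12:2958381-2960982) was 6353, 8124, 7671 and 7189. The scaled log2 ratios at 72 h were -0.10, -0.12 and -0.07, all within the range of most protein-coding starts.

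TEAD2 cannot be read so simply, because its 5′ end abuts DKKL1. The strongest region within 3 kb of a TEAD2 start (chr19:49363017-49364148) lies over an exon and start of DKKL1, 1.1 kb upstream of TEAD2, and had an AUC of 3794, 4629, 4380 and 3719, a ratio of -0.28 at 72 h. The region over the 5′ end of TEAD2 itself (chr19:49361360-49362554), which also overlaps a DKKL1 exon, was weak in solvent at 509 and had 1285, 1629 and 1281 with TGFβ1. Its ratios were 0.89, 1.30 and 1.09, the only region of the TEAD2 window past 2-fold, and its peak widened from 471 bp in solvent to 1028 bp at 72 h. In this window 1 of 11 regions had the TEAD2 start as its nearest protein-coding start, against 3 of 15 for TEAD3 and 39 of 42 for TEAD1, so the TEAD2 and TEAD3 windows mostly describe their neighbours.

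TEAD1 had the most regions of the set, 42, of which 33 had a solvent peak and 40 a peak at 72 h. Most lay in its long introns, and their ratios at 72 h ran from -1.31 to 1.34, with 18 of 32 above 0. The intergenic region 48.5 kb upstream, whose sequence is given above, had no solvent peak and an AUC of 301, 722 and 1050 at 6, 24 and 72 h (chr11:12625764-12626104). It appeared first as a weak peak and was larger at each later time. A pair of intronic regions less than 10 kb apart went down: chr11:12798531-12799077 had an AUC of 690, 765, 492 and 331 (ratio -1.31) and chr11:12806165-12806449 had 993, 972, 740 and 569 (ratio -1.05). Between them, the stronger region at 128.5 kb from the 5′ end had 2905, 3754, 3274 and 3387 and a ratio of -0.03, so the decline did not extend over the whole stretch. Per base of peak the first of the pair had a ratio of -0.21, since its peak narrowed from 355 to 174 bp, and the second -0.87. Before scaling, the AUC of the second was less than 2-fold lower.

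In TEAD4, the intronic region with TEAD and AP-1 letters (chr12:2998847-2999224) had no solvent peak and an AUC of 280, 615 and 693. A second intronic region of TEAD4, 15.5 kb from the 5′ end, also appeared with TGFβ1 and had 235, 301 and 305. TEAD3 had no region past 2-fold in either direction, 2 of its 10 regions with both peaks had a ratio above 0 at 72 h, and 2 regions with solvent AUCs of 277 and 281 were without a peak at 72 h. The summed scaled AUC of the 4 windows at 72 h was 1.10-fold solvent for TEAD1, 0.998-fold for TEAD2, 0.964-fold for TEAD3 and 1.02-fold for TEAD4.

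Of the target genes, 3 had a strong start region that stayed near its solvent level, and 1, ANKRD1, had a start that was weak in solvent. ANKRD1 encodes an ankyrin repeat protein of muscle nuclei and sarcomeres that YAP induces in many cell types. Its start region (chr10:90921046-90921616), which contains the whole promoter stretch printed above, had an AUC of 318 in solvent and 889, 1428 and 1296 after 6, 24 and 72 h. The scaled log2 ratios were 1.04, 1.79 and 1.78. All TGFβ1 values were thus at least 2-fold above solvent, and the level at 24 h was kept at 72 h. Of 12830 protein-coding start regions with both peaks, 1.44% were at least 2-fold higher at 72 h and 0.390% at least 2-fold lower, and the ANKRD1 ratio was at their 99.7th percentile. Most protein-coding starts were stronger in solvent, with a median AUC of 2910. Of all regions with a solvent AUC of 200 to 400, 27.2% were at least 2-fold higher at 72 h and the 95th percentile was 1.91. The ANKRD1 ratio lay below that percentile, so it was not extreme for a region this weak. The peak also widened, from 216 bp in solvent to 459, 563 and 556 bp, and per base of peak its ratio was 0.10, 0.53 and 0.49, under 2-fold at each time. The −log10 q at its summit, which was not scaled, was 4.33 in solvent and 5.87, 7.16 and 6.99 with TGFβ1.

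CCN1 and CCN2 encode secreted matricellular proteins, formerly named CYR61 and CTGF, and both are direct YAP targets. The CCN1 start region (chr1:85580430-85582700) had an AUC of 5251 in solvent and of 6922, 6401 and 5374 at 6, 24 and 72 h, with scaled ratios of -0.04, -0.09 and -0.21. The CCN2 start region (chr6:131949190-131951714), which also holds a start of the noncoding gene LINC01013, had 4307, 6568, 5969 and 5551, with ratios of 0.17, 0.09 and 0.12. AMOTL2, an angiomotin family protein that binds YAP and restrains it, had the strongest start region of the set (chr3:134373231-134375658), with 8064, 10269, 9945 and 9187 and ratios of -0.09, -0.08 and -0.06. None of the 3 starts changed by 1.5-fold in either direction.

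At CCN2, the region 28.9 kb upstream (chr6:131980077-131980488) whose 2 TEAD sites are shown above had an AUC of 312 in solvent and 626, 975 and 1219 after 6, 24 and 72 h. Its scaled log2 ratios were 0.56, 1.26 and 1.72, and per base of peak 1.18 at 72 h. The −log10 q at its summit, which was not scaled, was 4.27 in solvent and 6.97 at 72 h. The region lies 1364 bp from a start of LINC01013. The other 4 CCN2 regions with both peaks, the start included, had ratios between 0.12 and 0.22 at 72 h. All 5 were thus above 0, and the region 28.9 kb upstream stood apart from the rest of the window. The 201 bases around the summit of the CCN2 start region held no TEAD letters. That window lies inside the gene, whereas the start region also covers the promoter stretch printed above with its 3 TEAD sites.

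CCN1 had 19 regions in its window, of which 11 had a peak in solvent and 15, 16 and all 19 after 6, 24 and 72 h. The 8 regions gained by 72 h were small, with an AUC between 211 and 600 at that time. Downstream of the gene, the region at 26.6 kb (chr1:85606891-85607762) had an AUC of 2201, 3915, 4816 and 4714, a ratio of 0.39, 0.75 and 0.85. The regions at 31.1 kb (1802, 2491, 2690 and 2913, ratio 0.45 at 72 h) and at 48.6 kb (1180, 1697, 2572 and 2311, ratio 0.72) were higher as well. These were well covered regions that stayed under 2-fold. Upstream, in the neighbouring gene DDAH1, the region 8.4 kb from the CCN1 start had 3312, 3908, 3448 and 3176 and a ratio of -0.31, and 8 of the 19 regions had DDAH1 as the nearest protein-coding start, with the start of the gene ENSG00000282057 nearer still. With 10 kb in place of 50 kb on either side, which leaves out the downstream regions, the log2 ratio of the summed AUC of CCN1 at 72 h was -0.04 in place of 0.34.

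AMOTL2 carried the largest ratio of the set. The region 26.8 kb from its 5′ end, past the end of the gene (chr3:134348467-134348939), had an AUC of 244 in solvent and 769, 1395 and 1399 after 6, 24 and 72 h, with ratios of 1.22, 2.14 and 2.27. Per base of peak the ratio was 1.84 at 72 h. It lies 294 bp from a start of the noncoding gene ENSG00000260633. About 3 kb from it, the region chr3:134352034-134352936, which overlaps the pseudogene RPL39P5, went the opposite way with an AUC of 1936, 1846, 1357 and 785 and ratios of -0.51, -0.89 and -1.55 (-0.57 per base of peak at 72 h, since the peak narrowed from 759 to 404 bp). Between these neighbours, the region at chr3:134350890-134351230 had 1036, 935, 904 and 679 and a ratio of -0.86. Farther downstream an intergenic region (chr3:134317405-134317892) had no solvent peak and then 346, 998 and 1672, the largest AUC at 72 h of the 17 regions around the 10 genes that were in all TGFβ1 lists and not in solvent. Of the regions lost by 72 h, chr3:134307347-134307760 (388, 471 and 407 before) has RYK as its nearest protein-coding start and lies 5738 bp from a start of LINC02004, and chr3:134378020-134378201 (235 and 210, none at 24 h) lies 2541 bp from an AMOTL2 start.

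**Figure D3:**
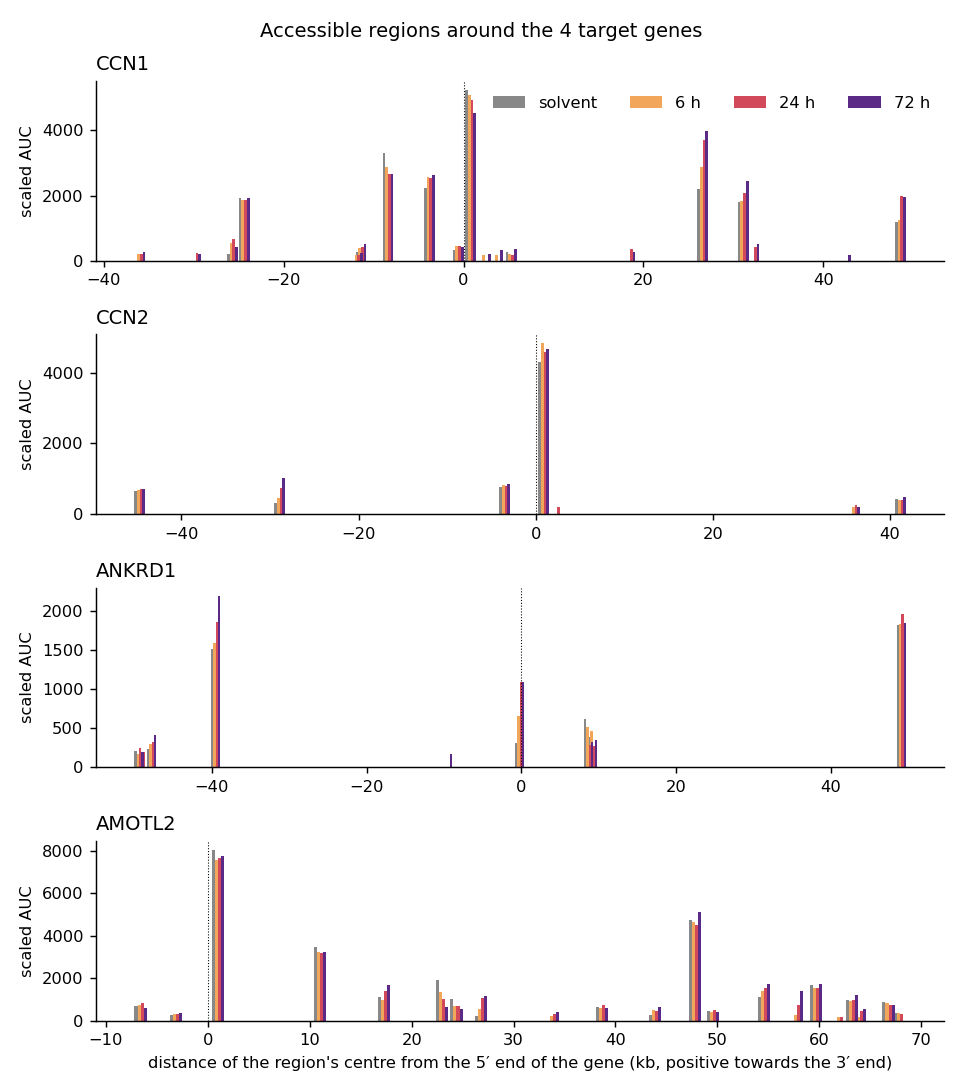
Scaled AUC of each region (bars for solvent, 6, 24 and 72 h, drawn side by side at the region's centre, so that bars of close neighbours overlap) against distance from the 5′ end of CCN1, CCN2, ANKRD1 and AMOTL2 in kb. At the 5′ end, the bars of ANKRD1 go from 318 to 1092 while those of CCN1, CCN2 and AMOTL2 stay nearly level, and the largest relative changes at CCN2 and AMOTL2 are at 28.9 kb upstream and 26.8 kb downstream.

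The rest of the ANKRD1 window was mixed. A region over an exon at its 3′ end (chr10:90912188-90912601) had an AUC of 621, 705, 374 and 393 and a ratio of -0.91 at 72 h, and the strong upstream region at 39.5 kb had 1516, 2155, 2430 and 2600 and a ratio of 0.53. Over the windows, the log2 ratio of the summed AUC at 72 h was 0.36 for ANKRD1, 0.34 for CCN1, 0.31 for CCN2 and 0.11 for AMOTL2. With 10 kb on either side these values were 0.54, -0.04, 0.13 and -0.09, so the sign of CCN1 and AMOTL2 turned. Scaled at all shared regions in place of those near a TSS, ANKRD1 and CCN2 stayed above 0 at 0.22 and 0.16, whereas AMOTL2 was at -0.03, YAP1 at -0.07 and TEAD4 at -0.12. Among 16301 windows of protein-coding genes with at least 5 regions, the median was 0.11, the 5th percentile -0.15 and the 95th 0.83, and ANKRD1, CCN1 and CCN2 stood at percentiles 80.0, 78.4 and 75.8 and AMOTL2 at 51.4. The coactivators and TEAD genes stood between percentile 17.6 (TEAD3) and 65.2 (WWTR1).

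The share of summits with TEAD letters was higher, and that with AP-1 letters lower, than over all regions. GGAATG was in the 201 bases around the summit of 41 of 185 regions (22.2%, 95% Wilson interval 16.8 to 28.7%), against 15.9% of all regions. By role the share was 36.8% at the target genes (21 of 57, 25.5 to 49.8%), 17.9% at the TEAD genes (11.0 to 27.9%) and 12.0% at the coactivators (5.62 to 23.8%). Among the target genes, AMOTL2 had them in 10 of 22 regions, CCN2 in 3 of 7, CCN1 in 6 of 19 and ANKRD1 in 2 of 9. TEAD4 had them in 4 of 10, TEAD1 in 9 of 42, TEAD2 in 1 of 11 and TEAD3 in none of 15. YAP1 had them in 5 of 22 and WWTR1 in 1 of 28. The share thus differed between the genes of each role. The AP-1 letters were in 23.2% of the regions (17.7 to 29.8%) against 32.3% of all regions, and TEAD and AP-1 letters together in 4.32% against 5.09%. The lower AP-1 share was present only away from starts. Within 3 kb of a TSS it was 22.1% against 22.3% of all such regions, and farther away 23.9% against 37.5%. The TEAD shares were 22.1% against 13.0% and 22.2% against 17.4% in the same order. The intervals cover counting error only, neighbouring regions are not independent, and genes became known as YAP targets in part through TEAD sites, so no test was made of these shares.

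**Figure D4:**
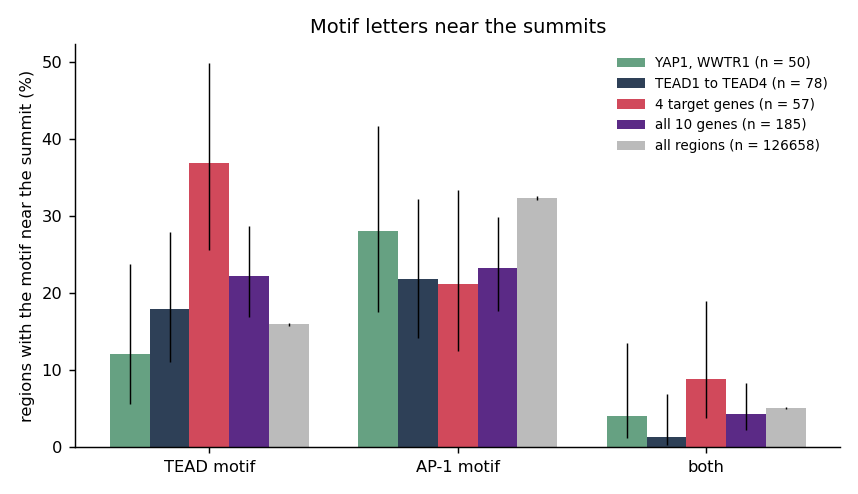
Percentage of regions with TEAD letters (GGAATG), AP-1 letters (TGACTCA or TGAGTCA) or both in the 201 bases around the summit, on either strand, for the regions of the coactivators, TEAD genes, target genes, all 10 genes and all merged regions. Bars start at 0 and error bars are 95% Wilson intervals. The target genes have the highest TEAD share, 36.8%, and all regions the highest AP-1 share, 32.3%.

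The 3 further motifs searched had shares near those of all regions: the RUNX letters TGTGGTT at 7.57% against 6.48%, the E-box CACCTG at 18.4% against 17.9%, and the palindromic SMAD letters GTCTAGAC at 0.541% (1 region) against 0.295%. Farther than 3 kb from any TSS, the 17 regions with TEAD letters and a peak in both lists had a median log2 ratio of 0.18 at 72 h and the 61 without had 0.06, against 0.35 and 0.25 over all such regions. The order was the same in the set as in all regions, and both medians of the set were lower. No test was made of the difference.

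The other genes of the pathway were read at their start regions. Of 24 regulators of YAP and TAZ (Hippo kinases and their scaffolds, angiomotins, VGLL cofactors and others), 23 had a start region and a peak there in all lists, and VGLL1, a cofactor that competes for TEAD, had none. No regulator start was 2-fold or 1.5-fold higher or lower at any time, and the median log2 ratio was -0.08, -0.15 and -0.12. At 72 h the ratios ran from -0.34 at WWC1 (KIBRA, an upstream activator of the pathway) through -0.24 at VGLL4 (a TEAD corepressor) and -0.20 at WWC2 to 0.05 at VGLL3 and FRMD6 and 0.06 at AMOT. Of 17 other genes in wide use as YAP and TAZ targets, all had a start region with a peak in each list, and none was 2-fold or 1.5-fold changed. Their medians were 0.00, -0.04 and -0.04, and at 72 h the ratios ran from -0.27 at RBMS3, -0.22 at FOXF2 and -0.21 at CRIM1 to 0.19 at AXL (a receptor tyrosine kinase), 0.24 at F3 (tissue factor) and 0.54 at CCDC80 (a matrix protein). Within both lists the start regions thus stayed near the level of all protein-coding starts. Over all such starts with both peaks, 504 of 12830 were at least 1.5-fold higher at 72 h and 189 at least 1.5-fold lower. In lists this short, the absence of changed starts is therefore not a result about the pathway. Among the 10 genes, 23 regulators and 17 further targets, only ANKRD1 had a start region, chosen by the largest solvent AUC, past 2-fold at 72 h. The region over the 5′ end of TEAD2, which that rule did not take, had a ratio of 1.09.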

How the data were processed

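ATAC-seq of 4 conditions, 2 replicates each, was analysed from the deposited peak lists. The authors trimmed, mapped to GRCh38, removed duplicates from and called peaks in the reads of both replicates together, with Trimmomatic 0.38, Bowtie2 2.4.5, SAMtools 1.4.1, Picard and Genrich 0.5 per the submitters' processing notes. The signal column deposited by the authors is the AUC of a peak, and its minimum is 200. The authors also deposited −log10 p-values and −log10 q-values at the summit, a browser score and the summit offset. Depth is unknown, and the authors' tests on reads were not used here.

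Peaks sharing at least 1 bp were merged, genes came from GENCODE 44, and the AUC was summed per region and list and scaled by the median log2 ratio at regions within 3 kb of a TSS. Regions with a ratio of at least 2-fold, gained or lost regions were counted beside the same counts over all regions. A start region is the merged region within 3 kb of a TSS of the gene with the largest solvent AUC. The regions named are each start region, the largest region of a window, and the 5 highest, 5 lowest, 5 gained in all TGFβ1 lists and 5 lost, with some neighbours of these chosen after their values were seen. In the pathway lists, the 3 highest and 3 lowest starts are named. The genes and lists were chosen with earlier results of these data known. The CCN1 downstream regions and the AUC per base of single regions were likewise looked at after the values were seen. Motifs were counted on both strands in the 201 bp around the summit of the strongest peak. Merging, scaling and the counts of higher and lost regions were tested on simulated lists, made from the solvent peaks with unchanged boundaries. That test did not cover the AUC threshold, changes of peak width or scaling near a TSS. Windows, start regions and motifs were not covered either. Software was Python 3.11.15 with pandas 2.3.3, numpy 2.4.6, matplotlib 3.10.9 and scipy 1.17.1.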

Additional observations from a re-analysis of the deposited data

How the results depend on the processing

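No paired analysis was possible because each list pools both replicates, and leaving out replicates was not run for the same reason. Among the values for the set as a whole, 105 stayed close to those reported and 60 moved, and some stated directions turned. With a minimum AUC of 400, 0, 1 and 3 regions were lost at 6, 24 and 72 h, 0, 1 and 4 were at least 2-fold higher, and 1 and 2 were 2-fold lower at 24 and 72 h. With lists of equal length, 3, 9 and 10 regions were gained and 14, 23 and 23 lost, and 125, 122 and 123 regions had a peak against 136 in solvent, so that losses exceeded gains and the direction of the count turned. No share over all regions is given beside these counts or those of the other settings, so they are not results about these genes. With 10 kb on either side of a gene, 103, 105 and 108 regions had a peak at 6, 24 and 72 h, 11, 14 and 18 were gained and 4 were lost at 72 h. With 100 kb, 38 were gained at 6 h, and 9, 14 and 20 were 2-fold higher. With only regions nearest to the gene, 15 and 20 were gained at 6 and 24 h, and 1, 2 and 4 were lost at the 3 times. Without scaling, the median log2 ratio was 0.43, 0.39 and 0.32, 13 and 17 regions were 2-fold higher at 6 and 24 h, and 1 was 2-fold lower at 24 h. Scaled at all shared regions, the median was -0.11 at 24 h and -0.07 at 72 h, 2 regions were 2-fold higher at 6 h and 5 were 2-fold lower at 24 h, so the sign of the median depends on the scaling. With the AUC per base, 1, 1 and 3 regions were 2-fold higher and 2, 0 and 2 were 2-fold lower. At 1.5-fold, 9, 18 and 22 were higher and 4, 13 and 8 lower. With 50 bp on either side of the summit, the shares were 13.5% for TEAD (8.84% over all regions) and 16.8% for AP-1 (24.1%). They were 0.0% for SMAD (0.231%) and 9.73% for the E-box (10.1%). In whole peaks they were 37.3% for TEAD (29.5% over all regions), 31.4% for AP-1 (38.3%), 15.1% for RUNX (11.8%) and 40.0% for the E-box (35.5%). Other causes than the construction of each alternative were not tested. Regions of low AUC enter and leave lists at the threshold, and depth was unknown, so small gains, losses and ratios are not separable from depth.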
